A study of Mus musculus with 2 samples.

Results

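The collagen chain genes were the rows whose symbol consisted of Col, a type number, the letter a and a chain number. There were 42 of them among the 17408 genes measured: 10 fibrillar, 9 network-forming and 23 other chains. They were measured by 3′ single-cell RNA-seq in droplets (10x Chromium) in mouse embryonic fibroblasts (MEFs) on the way to induced pluripotent stem cells, taken without sorting at day 16. STEMCCA MEFs carry Oct4, Sox2, Klf4 and c-Myc in a doxycycline-inducible cassette, and the study used 2 mouse systems of this kind without a label that ties either to a library. All cells of both libraries had received doxycycline, LIF and ascorbic acid in mouse ESC medium with serum. There was no untreated group. Both libraries were put in 1 group by the labels and are called replicates 1 and 2 here. Nothing in the labels tells how the cultures behind them differed. The fit behind the p-values holds library as a term. The p-values thus measure how far differences between states varied between these 2 libraries, pooled over the states. That spread may be partly technical, and states of 1 library are not separate replicates.

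Collagens are trimers of chains built from Gly-X-Y repeats. The fibrillar types (I, II, III, V, XI and others) build the fibrils of connective tissue, and MEFs are known as strong producers of types I and III. Network types form sheets such as the type IV mesh of basement membranes, and the remaining types bind to fibrils, anchor epithelia, span membranes or form beaded filaments. Each trimer is hydroxylated and folded in the endoplasmic reticulum, exported, cleaved and cross-linked. Prolyl hydroxylases, which act on every collagen, use ascorbate as a cofactor. Naive pluripotent cells are known for a thin matrix that is low in fibrillar collagen.

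The table held 3109 cells for replicate 1 and 3914 for replicate 2, with a median of 15625 and 14292 UMIs per cell. A UMI marks 1 captured RNA molecule at its 3′ end, so a level, given here as UMIs per 10000 UMIs of the cell and averaged over cells, was not divided by gene length. Clustering without the collagen genes, their listed partner genes and X- and Y-linked genes gave 19 clusters. The 15 with at least 30 cells in each library are called states and entered 1 limma fit. Cluster 4 was pluripotent-like, where 11 of the 12 markers listed were up at least 2-fold and Dppa5a, Utf1 and Zfp42 led. Cluster 3 was contractile-like with 7 of 8 markers, and 8 of 11 fibroblast markers were up in it as well. Cluster 11 was fibroblast-like, with 6 of 11 markers. The other states carry their number, and those that matter most here are cluster 14, led by Cthrc1, Thbs4 and Cilp, and cluster 12, led by Tcf19, Tk1 and Top2a, with 6 of 8 proliferation markers up. Pluripotent-like cells had a median of 28768 and 26127 UMIs, the deepest of all states. Of all cell barcodes, 12 occurred in both libraries. All these shares and names come from clusters rebuilt here, not from cell labels of the study.

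The summed level of all 42 chains ran from 145.6 ± 28.3 per 10000 UMIs (SD, n = 2 libraries) in cluster 14 to 3.03 ± 0.51 in the pluripotent-like state. Next after cluster 14 came the fibroblast-like state with 105.8 ± 28.8, the contractile-like state with 99.6 ± 14.04 and cluster 12 with 67.0 ± 10.1. Cluster 14 was above the fibroblast-like state in both libraries (165.6 against 126.1 and 125.6 against 85.4), while the order of the fibroblast-like and the contractile-like state differed between them. Cluster 12 lay below all 3 in both libraries, and cluster 6, at 33.7 ± 1.24, below cluster 12. At the low end, clusters 13, 8 and 0 held 7.19 ± 0.75, 6.76 ± 0.66 and 5.70 ± 1.12. Fibrillar chains took 79.6% and 78.1% of the sum in cluster 14 (replicates 1 and 2). Their share was smaller in the states of low level, at 36.1% and 48.2% in cluster 13, where other chains took 43.5% and 36.6%. Against the mean of the other 14 states, the summed level in pluripotent-like cells differed by −3.79 ± 0.0042 on the log2 scale (SD, n = 2). With 2 libraries an exact sign-flip test cannot give a p under 0.5, so this value stands without a test.

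**Figure D1:**
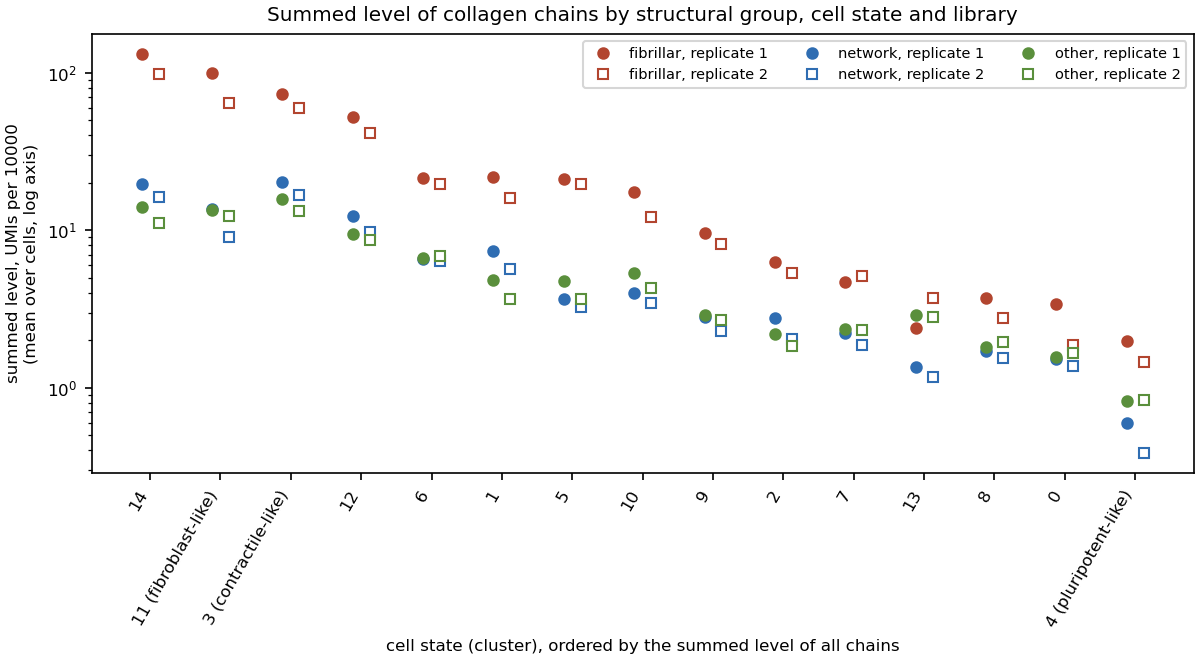
Summed level of fibrillar, network and other collagen chains (vertical log axis, UMIs per 10000, mean over cells) in the 15 states, ordered from the highest to the lowest sum over all chains. Each point is 1 library. Fibrillar chains lie highest in every state but cluster 13 of replicate 1, and cluster 4, the pluripotent-like state, is lowest for all 3 groups.

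Of the 42 chains, 23 reached 0.1 per 10000 in the same state in both libraries, in 1 state or more, and were tested. Those were 9 fibrillar, 5 network and 9 other chains. The test was limma on log2(level + 0.1) with 1 profile per state and library, so a difference of a low gene is understated. A limma difference is taken between means of these log2 values over states. It need not equal the log2 ratio of the mean levels given beside it. All 23 differed among the 14 states that were not pluripotent-like (limma F test, adjusted p under 0.05 over all 9082 genes). That is a high share of a high background, since 84.4% of all genes tested did so too. Col5a3, Col7a1, Col10a1 and Col28a1 were tested only because 1 of these states was high, and Col8a2 because 2 were. For these chains a difference among the states was thus partly built in. The median range between the highest and the lowest of these states was 3.35 on the log2 scale for collagens and 0.88 for all genes. By level, 11 chains were highest in cluster 14, 8 in the contractile-like state and 4 in the fibroblast-like state. In 13 of the 23, the 4 highest states were clusters 3, 11, 12 and 14 in some order. The order of neighbouring states was not always the same in both libraries. Of 14 neighbouring pairs, both libraries had the same order in 10 for Col1a2, 10 for Col1a1, 9 for Col3a1, 10 for Col4a2, 9 for Col6a3 and 5 for Col10a1.

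**Figure D2:**
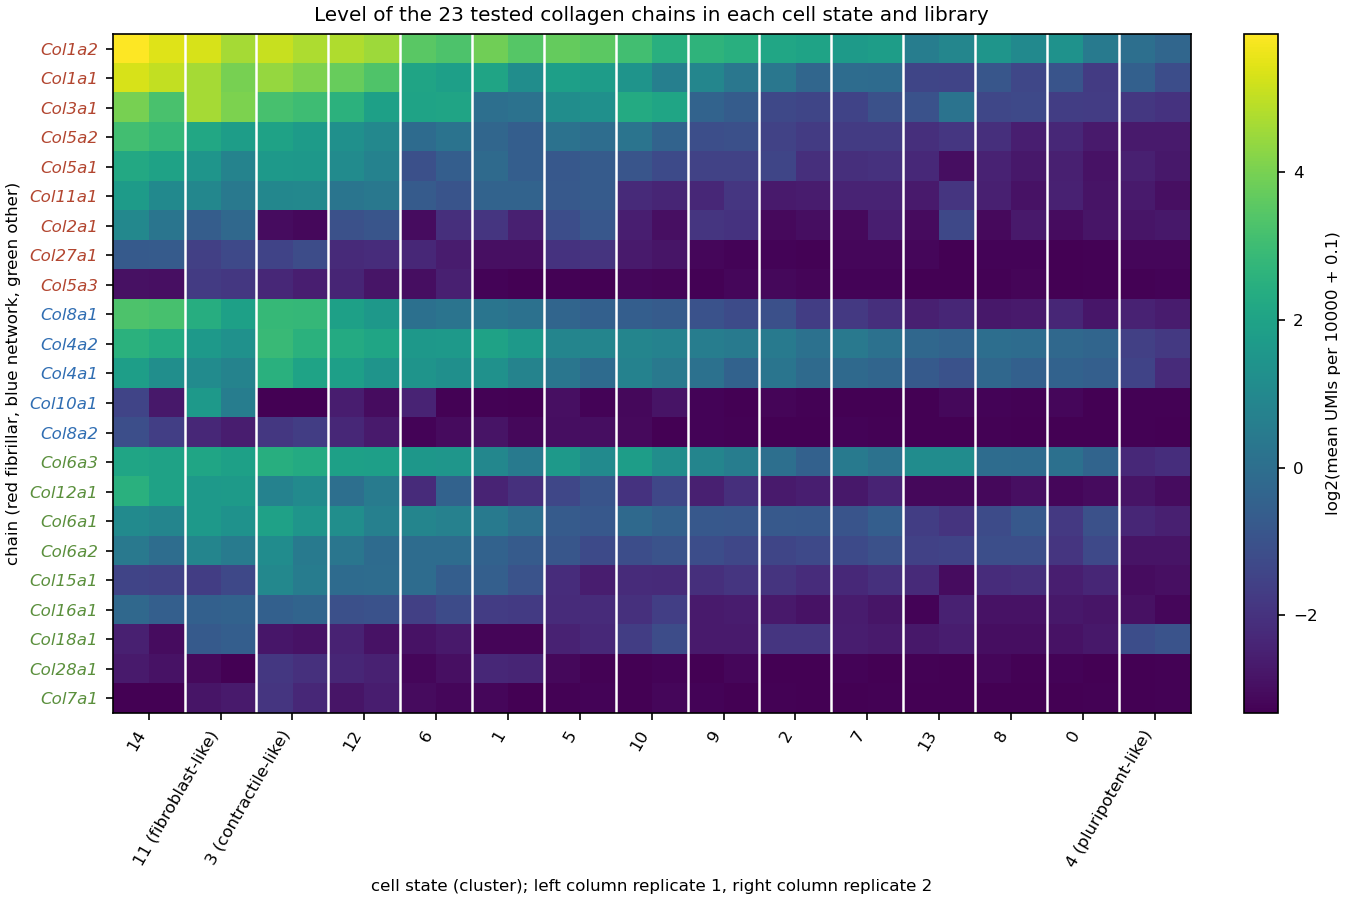
Level of the 23 tested chains as log2(mean UMIs per 10000 + 0.1) (colour) in the 15 states, with replicate 1 left and replicate 2 right in each pair of columns. Chains of all 3 groups are brightest in clusters 14, 11, 3 and 12 on the left, while Col18a1 stands out in the pluripotent-like state at the right edge and Col10a1 in cluster 11.

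Type I collagen is the main protein of the fibrils, and its chains were the most abundant collagens here. Col1a2 (chr6:4504814-4541544, GRCm38) stood at 58.3 and 42.5 per 10000 in cluster 14 (replicates 1 and 2), 39.6 and 24.6 in the fibroblast-like state, 34.4 and 26.6 in the contractile-like state and 27.4 and 22.7 in cluster 12. Its lowest states were cluster 13 with 1.40 and 1.76 and the pluripotent-like state with 0.92 and 0.73. Every state lay above the pluripotent-like one in both libraries. Col1a1 (chr11:94936224-94953042) was at 39.3 and 32.1 in cluster 14, 24.8 and 15.7 in the fibroblast-like state and 21.1 and 17.0 in the contractile-like state. Its lowest levels were not in the pluripotent-like state, at 0.61 and 0.36, but in cluster 13, at 0.27 and 0.27, with clusters 0 and 8 next to it. Every cell of cluster 14 held at least 1 UMI of each type I chain, 52 cells in replicate 1 and 41 in replicate 2.

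The 250 bases before the start of Col1a2 are shown because it was the chain of highest level. RefSeq places them at chr6:4505368-4505617 (GRCm38.p6, plus strand), inside the GENCODE limits of the gene. Capitals mark its match to CCAAT, 109 bases before the start.
Col1a2: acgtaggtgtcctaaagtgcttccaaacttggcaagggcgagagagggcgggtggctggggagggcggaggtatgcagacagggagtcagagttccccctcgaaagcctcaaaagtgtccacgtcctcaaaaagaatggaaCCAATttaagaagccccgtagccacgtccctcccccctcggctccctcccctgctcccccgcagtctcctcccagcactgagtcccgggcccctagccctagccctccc
CCAAT or its reverse complement ATTGG was found in 13 of the 36 collagen windows of this length and in 33.8% of all 32851 such windows, so the motif is about as frequent here as elsewhere.

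Col3a1 (chr1:45311538-45349706), which forms type III homotrimers alongside type I, had another order. It was highest in the fibroblast-like state, at 24.8 and 16.4 per 10000, above cluster 14 with 15.7 and 9.38 in both libraries. Cluster 10, led by Pcp4, Wfdc17 and Mmp13, reached 4.80 and 4.11 and was 1.41 above the mean of the other 13 states on the log2 scale (SE 0.19, limma, adjusted p = 3.2e-06). Col1a1 lay below that mean in the same state (−0.44, SE 0.12, limma, adjusted p = 0.0072). The pluripotent-like state held 0.18 and 0.15 of Col3a1, the lowest of all states.

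The minor fibrillar chains followed cluster 14. Col5a1 and Col5a2, which nucleate type I fibrils, reached 4.52 and 3.78 and 8.37 and 6.78 per 10000 there, and Col11a1, a chain of cartilage fibrils that also occurs in fibroblasts, 3.23 and 1.94. Col27a1 was low throughout, with its maximum of 0.51 and 0.53 in the same state. Col5a3 peaked in the fibroblast-like state at 0.20 and 0.18.

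Col2a1, the main collagen of cartilage, was highest in cluster 14 at 1.86 and 1.10 per 10000. Its lowest mean was that of the contractile-like state, at 0.023 and 0.015, where the type I chains were high. Within cluster 14 the UMIs of Col2a1 sat in few cells. Of 52 and 41 cells, 38.5% and 22.0% held a UMI, and the tenth of cells with most UMIs held 69.3% and 89.7% of them. For Col1a1 that share was 24.5% and 19.7%. Of 8 listed markers of cartilage and bone other than collagens, 2 were up at least 2-fold in cluster 14, and 2 in the fibroblast-like state.

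Among network chains, Col4a1 and Col4a2 form the most common type IV trimer of basement membranes. The highest state of both was the contractile-like one, where Col4a1 reached 5.62 and 3.88 per 10000 and Col4a2 7.37 and 5.68. Their lowest level was in the pluripotent-like state, with 0.26 and 0.12 for Col4a1 and 0.23 and 0.19 for Col4a2. Every other state lay above these values in both libraries. The genes sit head to head on chromosome 8 (Col4a1 11198423-11312826, minus strand, Col4a2 11312805-11449287, plus strand), with 22 bases of overlap between the gene models and 21 bases between the RefSeq start sites. Col8a1, a short-chain network collagen of vessels and the cornea, reached 9.77 and 8.98 in cluster 14 and 6.99 and 6.78 in the contractile-like state. Col8a2 had its maximum of 0.36 and 0.22 in cluster 14.

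Col10a1 (chr10:34389981-34397085), the collagen of hypertrophic cartilage, was the chain most tied to 1 state. It stood at 3.05 and 1.38 per 10000 in the fibroblast-like state, at 0.27 and 0.050 in cluster 14 and at no more than 0.090 in any other state and library. The mean of the fibroblast-like state was 13.99 times that of the next one. Col10a1 passed the filter through this state alone, so its difference from the other states is given as a description, without a test. Only 29.2% and 11.3% of the cells of this state held a UMI of it, against 98.1% and 98.5% for Col3a1. The tenth of cells richest in Col10a1 carried 79.3% and 98.3% of its UMIs, with up to 86 and 50 in 1 cell. In the macrophage-like cluster 18, which should lack it, the 4 and 9 cells held 0 UMIs of Col10a1, at a median of 8664 and 8833 UMIs per cell against 13586 and 11243 in the fibroblast-like state. With so few cells this allows up to 0.783 and 0.356 per 10000. That is above the mean of Col10a1 over all cells, 0.22 and 0.054, so it sets no limit on free RNA of this chain.

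The windows before the starts of Col10a1 and Col3a1, a network and a fibrillar chain that were both highest in the fibroblast-like state, are shown with TATAAA in capitals. They lie on the plus strand of GRCm38.p6 at chr10:34389731-34389980 and chr1:45311288-45311537, and the match is 32 bases before the start of Col10a1 and 117 before that of Col3a1.
Col10a1: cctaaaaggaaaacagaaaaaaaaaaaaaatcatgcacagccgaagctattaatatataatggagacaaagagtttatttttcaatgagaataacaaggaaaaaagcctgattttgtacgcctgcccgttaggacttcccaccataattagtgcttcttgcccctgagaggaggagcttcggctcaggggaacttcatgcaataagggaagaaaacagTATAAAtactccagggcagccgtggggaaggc
Col3a1: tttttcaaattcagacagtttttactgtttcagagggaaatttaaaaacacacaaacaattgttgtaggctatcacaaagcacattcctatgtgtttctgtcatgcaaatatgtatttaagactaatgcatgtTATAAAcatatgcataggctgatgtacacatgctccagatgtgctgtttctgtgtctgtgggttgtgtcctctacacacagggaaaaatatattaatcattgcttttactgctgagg
TATAAA or its reverse complement TTTATA was found in 4 of the 36 collagen windows and in 12.4% of all windows.

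Type VI collagen forms beaded filaments from chains that include Col6a1, Col6a2 and Col6a3. By mean, all 3 chains were highest in the contractile-like state and lowest in the pluripotent-like one. Col6a3 (chr1:90765923-90843971) went from 5.27 and 4.83 per 10000 to 0.11 and 0.13, Col6a1 from 3.72 and 2.67 to 0.098 and 0.075, and Col6a2 from 2.09 and 1.27 to 0.040 and 0.038. Col6a3 departed from the other 2 chains in cluster 13, led by Cytl1, Igfbpl1 and Ly6h. Its level there was 2.11 and 2.11, whereas Col6a1 stood at 0.22 and 0.16.

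Among fibril-associated chains, Col12a1 peaked in cluster 14 with 5.59 and 3.84 per 10000, and Col16a1 was level between cluster 14 (0.75 and 0.58), the contractile-like state (0.60 and 0.68) and the fibroblast-like state (0.61 and 0.64). The multiplexin Col15a1, found at basement membranes, followed the type I chains only in part. Its Pearson r with Col1a2 over the profiles of states that were not pluripotent-like was 0.66. Col15a1 was highest in the contractile-like state at 1.85 and 1.35, then in cluster 12 at 0.82 and 0.86 and in cluster 6 at 0.85 and 0.57. In the fibroblast-like state it stood at 0.22 and 0.30 and in cluster 14 at 0.27 and 0.26, and neither differed from the mean of the other states (limma, adjusted p = 0.83 and 0.75). Col7a1, the anchoring fibril chain, and Col28a1 were low and highest in the contractile-like state, with 0.17 and 0.10 and 0.18 and 0.14.

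State by state, the tested chains mostly moved together. Counts are those of chains higher or lower than in the mean of the other 13 states that were not pluripotent-like (limma, adjusted p under 0.05), each with the share of all 9082 genes in brackets. In cluster 12, 21 of 23 chains were higher (31.4%) and 0 lower (11.4%). In the fibroblast-like cluster 11, 21 were higher (26.3%) and 1 lower (18.5%), Col28a1. In the contractile-like cluster 3, 20 were higher (26.6%) and 3 lower (18.1%), Col2a1, Col10a1 and Col18a1. Col7a1 and Col28a1 passed the filter through cluster 3 alone, and Col5a3 and Col10a1 through cluster 11 alone, so each of these had to be high in the state where it is counted as higher. Col8a2 passed through 2 states only and was highest in clusters 14 and 3, so the filter bears on its calls as higher there too. In cluster 14, 19 were higher (29.2%) and 2 lower (27%), Col7a1 and Col18a1. These 4 states thus held most of the chains above the mean, and Col18a1 was the chain most often on the other side. Cluster 6, led by Mmp11, Isg15 and Dcn, had 13 higher (15.2%) and 2 lower (16.8%), Col8a2 and Col18a1.

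Mixed states followed. Cluster 1, led by Rarres2, Sostdc1 and Cyp11a1, had 8 chains higher (7.92%) and 7 lower (12.9%), cluster 5, led by Nxpe2, Sod3 and Thbd, 5 higher (7.59%) and 6 lower (10.9%), and cluster 10 had 3 higher (11.3%) and 10 lower (20.8%). At the low end nearly all chains were below the mean. In cluster 0, led by Dmrtc2, Tac2 and Rnase1, 0 were higher (10.4%) and 23 lower (33.7%). In cluster 8, led by the DNA replication genes Dtl and Lig1 among others, 0 were higher (18.1%) and 23 lower (29.5%). In cluster 7, led by the mitotic genes Cdc20, Cenpa and Cenpf, 0 were higher (22%) and 22 lower (17.7%). In cluster 13, 0 were higher (14.1%) and 20 lower (28.5%), and in cluster 2, led by Perp, Krt19 and Gsto1, 1 was higher (15.5%), Col18a1, and 19 lower (16.1%). Cluster 9 had 0 higher (21.3%) and 20 lower (12.4%). Clusters 9 and 12 both carried 6 of 8 proliferation markers, and their collagens lay on opposite sides of the mean. Each of the counts of 0 was also 0 at an unadjusted p under 0.05. Col5a3, Col7a1, Col10a1 and Col28a1 passed the filter through 1 state only and Col8a2 through 2, all of high level. Their calls as lower in other states, here and above, were thus partly built in. The chains were left out of the clustering, but the clusters came from the same cells, so these contrasts describe how the chains follow the other genes.

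The 19 chains that did not pass the filter had 3 to 571 UMIs in both libraries together, and 16 of them had under 100. They were Col4a3, Col13a1, Col17a1, Col22a1, Col6a4, Col6a5, Col9a1, Col4a4, Col4a6, Col24a1, Col20a1, Col14a1, Col9a3, Col25a1, Col23a1, Col9a2, Col26a1, Col6a6 and Col4a5. Col4a5, a type IV chain encoded on the X chromosome, had the most, with 292 and 279 UMIs, and reached 0.14 and 0.091 per 10000 in the contractile-like state. Col6a6 came next with 98 and 180 UMIs and was highest in cluster 5. Col9a2, a chain of type IX collagen on cartilage fibrils, was highest in the pluripotent-like state, at 0.041 and 0.026 per 10000 from 17 and 30 UMIs, against 20 and 16 UMIs in all other cells. Col6a5, Col13a1 and Col22a1, of 7 to 21 UMIs in all, were highest there too. Col26a1, with 10 and 44 UMIs in pluripotent-like cells of 99 and 89 in all, was highest in cluster 10. Col11a2 and Col19a1, which belong to the family, were not among the rows analysed here.

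In pluripotent-like cells nearly all chains that passed the filter were lower than in the mean of the other 14 states. Of 23, 22 were lower (43.5% of all genes tested were) and 1, Col18a1, was higher (33.2% of all genes) (limma, adjusted p under 0.05). The median difference was −1.67 for collagens on the log2 scale and −0.12 for all genes. All 9 fibrillar chains were lower, with a median of −1.88, and so were the 5 network chains, with a median of −2.34. Of the 9 other chains 8 were lower. In both libraries 7 chains lay below every one of the 14 other states, namely Col1a2, Col3a1, Col4a1, Col4a2, Col6a1, Col6a2 and Col6a3. The filter weighs on these counts, since Col5a3, Col7a1, Col10a1 and Col28a1 passed it through 1 state only and Col8a2 through 2, so that those chains had to be higher somewhere outside the pluripotent-like cells. Without the filter, 22 of all 42 chains were lower (26.1% of 17387 genes), 7 higher (27.9%) and 13 did not pass. The 6 added to Col18a1 among the higher were Col9a2 (0.37 on the log2 scale, SE 0.05, limma, adjusted p = 4.3e-06), Col26a1 (0.26), Col9a3 (0.12), Col6a5 (0.10), Col22a1 (0.09) and Col13a1 (0.07), all of low level.

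In size, Col6a3 (−3.26, SE 0.11, limma, adjusted p = 4.8e-19) and Col1a2 (−3.19, SE 0.12, adjusted p = 1.8e-17) were farthest down. Col3a1 followed with −2.78 (SE 0.19), Col4a2 with −2.71 (SE 0.07), Col5a2 with −2.38 (SE 0.11) and Col4a1 and Col8a1 with −2.34 each. Then came Col6a1 with −2.32, Col1a1 with −2.26 (SE 0.12) and Col6a2 with −2.20, and below 2 log2 units Col5a1 (−1.88), Col11a1 (−1.67), Col12a1 (−1.65), Col15a1 (−1.45), Col16a1 (−1.18) and Col27a1 (−0.63). The smallest differences among those lower were those of Col5a3 (−0.28) in the fibrillar group, Col8a2 (−0.42) and Col10a1 (−0.50) in the network group, and Col7a1 (−0.18) and Col28a1 (−0.30) in the last. These chains passed the filter through 1 state only, or 2 for Col8a2, none of them pluripotent-like. A lower level in pluripotent-like cells was thus partly built in, and no p-value is given for them here. Col2a1 stood at −0.76 (SE 0.25, limma, adjusted p = 0.0080). The calls of Col7a1, Col10a1 and Col2a1 were lost under some other settings.

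**Figure D3:**
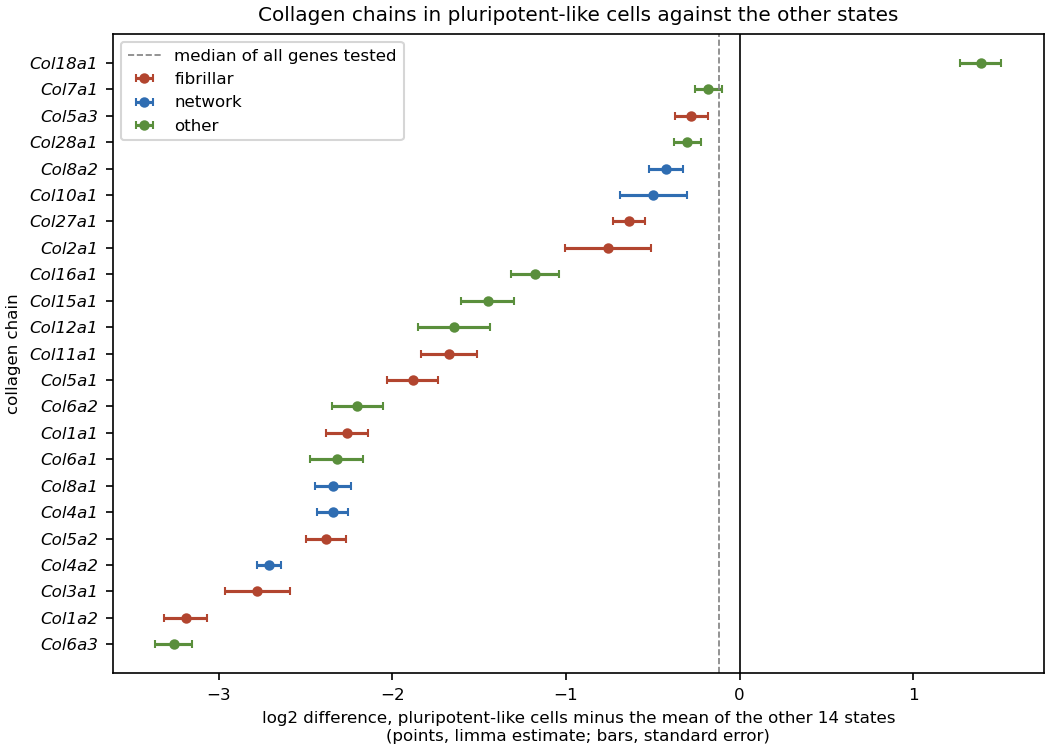
Log2 difference between pluripotent-like cells and the mean of the other 14 states for the 23 tested chains (points, limma estimate, bars, standard error). All these chains lie left of 0 except Col18a1 at 1.39, and the dashed line is the median of all genes tested, at −0.12.

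Col18a1 (chr10:77052178-77166548), a basement membrane multiplexin whose end fragment is known as endostatin, went the other way. Its levels in pluripotent-like cells were 0.35 and 0.41 per 10000, against a mean of 0.11 and 0.11 in the other states. The difference was 1.39 on the log2 scale (SE 0.12, limma, adjusted p = 1.3e-10). It was not confined to these cells. The fibroblast-like state was higher, at 0.51 and 0.57, and cluster 10, at 0.22 and 0.34, and cluster 2, at 0.17 and 0.16, came after the pluripotent-like state. Against the other 13 states, Col18a1 was also higher in those 3 states, by 1.93, 1.11 and 0.58 (limma, adjusted p = 2.1e-12, 1.4e-07 and 0.00056). Both libraries had the same order in 8 of 14 neighbouring pairs, among them the 3 pairs of the 4 highest states. At the bottom of the order, cluster 1 held 0.010 and 0.0086 in the same libraries.

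The summed collagen RNA of pluripotent-like cells can be set beside that of cells that should make little. The macrophage-like cluster 18, with 8 of 8 markers, held 9 collagen UMIs in 4 cells of replicate 1 and 13 in 9 cells of replicate 2. That gives 2.35 per 10000 (95% exact binomial interval 1.07 to 4.46) and 1.54 (0.82 to 2.64). Pluripotent-like cells held 3.47 (3.29 to 3.65) and 2.65 (2.55 to 2.75). Without Col18a1, pluripotent-like values were 3.13 and 2.24, and macrophage-like values 2.35 (1.07 to 4.46) and 1.42 (0.73 to 2.49). Both pluripotent-like values lay inside the macrophage-like interval. These intervals cover counting error only, and the 13 macrophage-like cells are few. Depth differed too, with a median of 8664 and 8833 UMIs in macrophage-like cells against 28768 and 26127 in pluripotent-like cells. Without Col18a1, the 4 and 9 macrophage-like cells held 9 and 12 collagen UMIs, and the 146 and 390 pluripotent-like cells 1322 and 2323. Free RNA need not scale with the depth of a cell, so levels per 10000 cannot set its part in the sum, which was not tested. The sum rests mainly on the abundant chains and does not speak for rare ones such as Col9a2, of which the macrophage-like cells held 0 UMIs in both libraries, which allows up to 0.783 and 0.356 per 10000 and so sets no limit near its level.

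For most abundant chains, the share in the collagen UMIs of pluripotent-like cells was close to that in all other cells of the same library. In replicate 1, 19 chains had at least 10 UMIs in pluripotent-like cells, and 15 of them had a share within 2-fold of their share elsewhere. In replicate 2 it was 14 of 21. Col1a1 took 18.1% and 13.0% of collagen UMIs in these cells, against 16.8% and 14.05% elsewhere. Col4a2 took 6.68% and 7.59% against 6.78% and 7.62%.

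The exceptions with a larger share in both libraries were Col18a1, Col9a2, Col26a1 and Col2a1. Col18a1 took 9.82% and 15.2% against 0.23% and 0.36%, which is 42.7 and 41.8 times as much. Col9a2 took 1.16% and 1.09% against 0.010% and 0.012%, or 114.9 and 89.6 times as much, from 17 and 30 UMIs. Col26a1 took 0.68% and 1.61%, or 15.2 and 46.7 times its share elsewhere, and Col2a1 1.02% and 1.93% against 0.41% and 0.64%. In replicate 2, Col6a5 and Col9a3 also reached 10 UMIs and had 119.4 and 40.4 times their share elsewhere, and Col12a1 had a smaller one, 0.80% against 1.96%. Only chains with at least 10 UMIs in pluripotent-like cells were compared, so a chain rare elsewhere could enter only with a large ratio. The ratios of Col9a2, Col26a1, Col6a5 and Col9a3 were thus partly built in and are descriptions. These ratios rest on few UMIs for the rare chains, and the part of free RNA in the other shares was not tested.

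**Figure D4:**
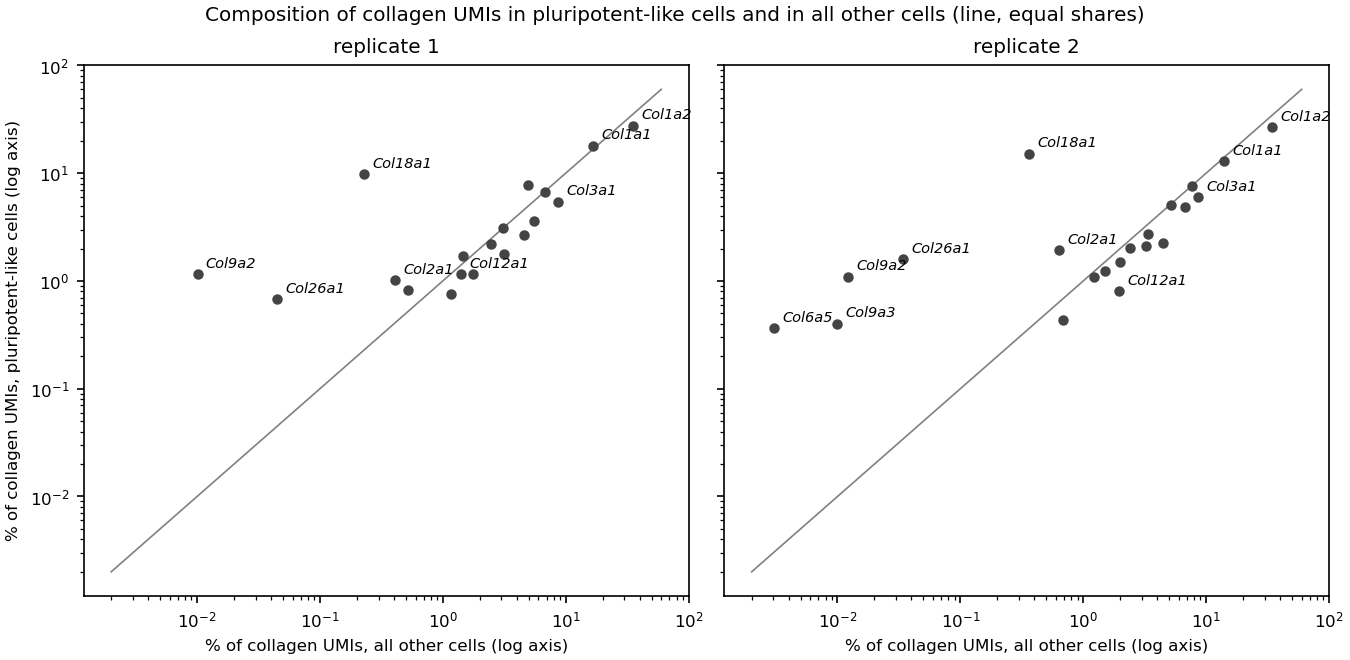
Share of each chain in the collagen UMIs of pluripotent-like cells (vertical, log axis) against its share in all other cells (horizontal, log axis), for all chains with at least 10 UMIs in pluripotent-like cells, 1 panel per library. The abundant chains lie near the line of equal shares. Col18a1, at 9.82% and 15.2%, and the rare chains Col9a2 and Col26a1 lie far above it in both panels, as do Col9a3 and Col6a5 in replicate 2. A chain rare in other cells could enter only with a large share in pluripotent-like cells.

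Of the pluripotent-like cells, 55.5% and 60% held a UMI of Col18a1, and 8.90% and 9.49% did after each cell was thinned to 3000 UMIs. Of the macrophage-like cells, 0 of 4 and 1 of 9 held one before thinning. After thinning it was 0 in both libraries, which with so few cells allows shares of up to 60.2% and 33.6% (exact 95% interval). For Col1a2 the thinned shares in pluripotent-like cells were 20.5% and 15.6%, against 1 of 4 and 1 of 9 macrophage-like cells.

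Chains that assemble into 1 trimer did not keep 1 ratio of UMIs across states. The ratio of Col1a1 to Col1a2 UMIs over all cells that were not pluripotent-like was 0.44 ± 0.05 (SD, n = 2). It was lowest in cluster 8, at 0.16 (95% exact interval 0.13 to 0.19) and 0.14 (0.12 to 0.17), and highest in cluster 14, at 0.66 (0.62 to 0.69) and 0.75 (0.70 to 0.80). The 4 states with the most type I RNA (clusters 3, 11, 12 and 14) had ratios of 0.48 to 0.66 in replicate 1 and 0.44 to 0.75 in replicate 2. The other 10 had 0.16 to 0.33 and 0.14 to 0.33, so the sets did not overlap in either library. Pluripotent-like cells, at 0.65 (0.56 to 0.77) and 0.48 (0.42 to 0.55), lay nearer to the first set than to the second. So did the ratio over all cells of a library, at 0.47 (0.46 to 0.48) and 0.41 (0.40 to 0.41). The ratio of pluripotent-like cells was above that of all cells in both libraries, and the intervals did not overlap. The part of free RNA in the ratio of pluripotent-like cells was not tested. The intervals cover counting error only, and UMIs of 2 genes are captured with efficiencies that may differ, so the ratio can be compared between states but not read as a number of chains.

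Type IV chains kept a steadier ratio. Col4a1 to Col4a2 ranged from 0.60 to 0.85 in replicate 1 and from 0.49 to 0.84 in replicate 2 over the 14 states that were not pluripotent-like. That is 1.41-fold and 1.70-fold, where Col1a1 to Col1a2 ranged 4.15-fold and 5.21-fold. Col6a1 to Col6a2 ranged 2.51-fold and 2.999-fold. The ratio of Col6a3 to Col6a1 ran from 1.34 and 1.26 to 8.97 (95% exact interval 6.10 to 13.7) and 10.9 (6.44 to 19.98) in cluster 13, where few Col6a1 UMIs, 29 and 15, stood behind it. In cluster 5 it was 5.47 and 4.37. Col3a1 to Col1a2 ranged over 9.34-fold and 10.3-fold, from 0.060 in cluster 1 and 0.063 in cluster 2 to 0.56 in the fibroblast-like state and 0.64 in cluster 10.

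**Figure D5:**
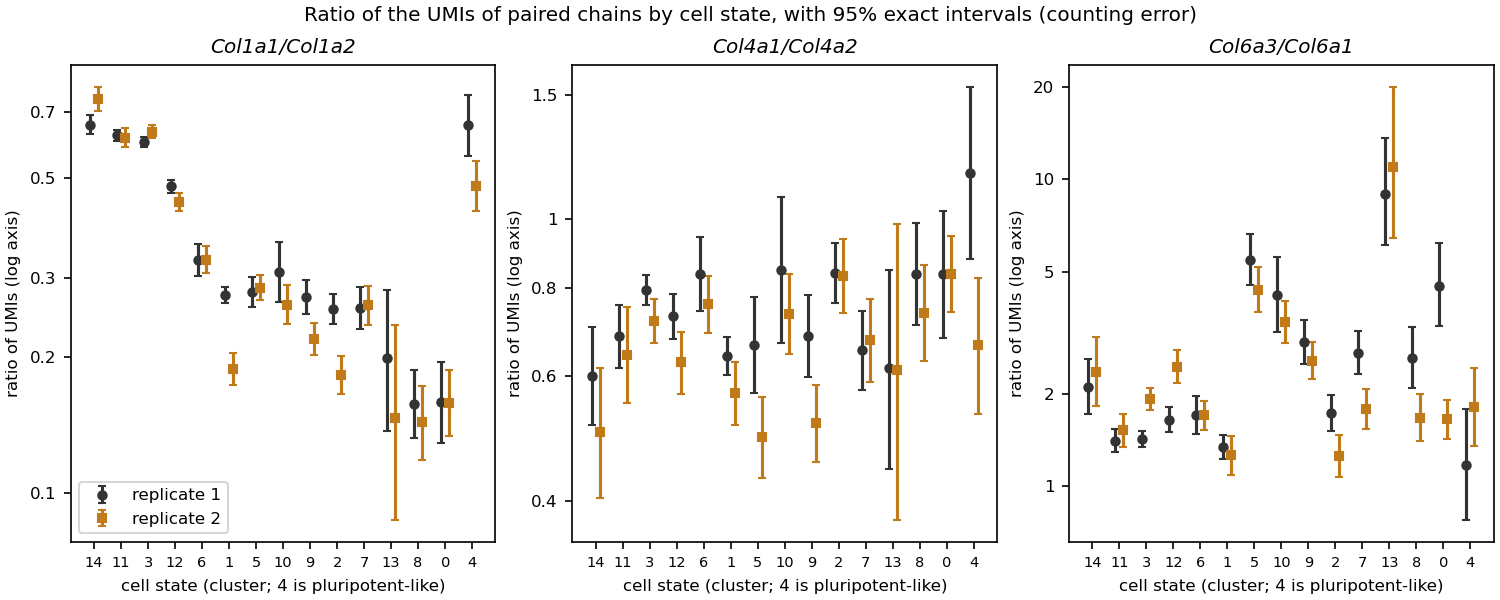
Ratio of the UMIs of 3 pairs of chains (vertical log axes, 95% exact intervals from counting) in the 15 states, in the order of their summed collagen level, with 1 point per library. Col1a1/Col1a2 goes down from cluster 14 (0.66 and 0.75) to cluster 0 (0.16 and 0.16) and is higher again in the pluripotent-like cluster 4. Col4a1/Col4a2 varies little outside cluster 4, and Col6a3/Col6a1 peaks in cluster 13. The part of free RNA in the ratios of cluster 4 was not tested.

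Across the 28 profiles of states that were not pluripotent-like, levels on the log2 scale went together for most pairs. The median Pearson r over the 253 pairs was 0.76. It was 0.99 for Col1a1 with Col1a2, 0.98 for Col5a1 with Col5a2, and 0.97 both for Col4a1 with Col4a2 and for Col6a1 with Col6a2, but 0.75 for Col6a1 with Col6a3. Col18a1 stood apart, with an r of 0.71 with Col10a1, 0.19 with Col1a2 and −0.37 with Col28a1, the lowest of all pairs. Profiles of 1 library share its depth and its free RNA, so these are descriptions.

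The genes that modify, fold, export, cleave, cross-link and bind collagen were also lower in pluripotent-like cells. Of 49 listed, 37 passed the filter, and 35 of them were lower (43.5% of all genes) and 1 higher (33.2%) (limma, adjusted p under 0.05). Their median difference was −0.96 on the log2 scale, against −0.12 for all genes. Of the 13 enzymes of prolyl and lysyl modification tested, 13 were lower. P4ha3, a catalytic chain of prolyl 4-hydroxylase, stood at −1.80, with 0.056 and 0.040 per 10000 against 0.71 and 0.60 in the other states. Levels of the other states are arithmetic means over states here and below, while the differences come from means of log2 values. P3h4 stood at −1.79, Plod3, a lysyl hydroxylase, at −1.09 and the prolyl 3-hydroxylase P3h3 at −1.03.

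For folding and export 9 genes were tested, 8 lower and 1 higher. Serpinh1, the collagen chaperone HSP47, was at −3.10 (SE 0.11, limma, adjusted p = 1.5e-18), from 5.65 and 5.42 per 10000 in the other states to 0.36 and 0.66. Fkbp10, a prolyl isomerase, was at −1.98, Creb3l2, a transcription factor of the secretory pathway, at −1.88, and Fkbp14 at −0.89. Klhl12, which helps to build large COPII carriers, was the 1 higher gene (0.38, SE 0.13, limma, adjusted p = 0.013), and its call was lost with a smaller pseudocount.

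Among genes of propeptide cleavage and assembly 5 of 6 were lower. Pcolce, an enhancer of procollagen cleavage, stood at −2.30, Sparc, a collagen-binding matrix protein, at −2.18, Adamts2 at −1.38 and Bmp1 at −1.29. Tll1 did not pass (−0.16, limma, adjusted p = 0.17). All 4 cross-linking enzymes tested were lower, Lox at −2.48, Loxl3 at −2.04, Loxl1 at −1.995 and Loxl2 at −0.77. All 5 receptors tested were lower, among them the discoidin receptor Ddr2 (−1.98), the integrin chains Itgb1 (−1.88) and Itga11 (−1.23) and the uptake receptor Mrc2 (−1.54).

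Between the libraries, most chains were lower in replicate 2. Over all cells, 17 of the 18 chains that averaged at least 0.1 per 10000 were lower there, with a median log2 difference of −0.63. The background was 68.7% of 7146 genes, with a median of −0.06. Only Col1a1 (−1.02, from 6.91 to 3.35 per 10000) and Col10a1 (−1.08, from 0.22 to 0.054) were at least 2-fold lower, as were 0.21% of all genes. None was 2-fold higher (0.042% of all genes). The states differed in size between the libraries at the same time. Clusters 14, 11, 3 and 12 made up 1.67%, 6.72%, 10.9% and 5.76% of replicate 1 and 1.05%, 3.40%, 6.11% and 3.14% of replicate 2, while the pluripotent-like share was 4.70% and 9.96%. With equal weight to each state, 15 of 18 chains were lower in replicate 2 (66.8% of all genes), the median was −0.24 (−0.04 for all genes), and no chain was 2-fold apart. State by state, Col1a1 and Col4a1 were lower in replicate 2 in 15 of 15 states, Col1a2, Col4a2, Col6a3 and Col10a1 in 13, Col3a1 in 9, Col18a1 in 6 and Col12a1 in 3. With 1 library on each side these differences have no test, and the culture, the library preparation and the depth cannot be told apart.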

How the data were processed

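Both libraries were made with Chromium 3′ version 2 chemistry. The authors processed reads with Cell Ranger 2.1.1 (mm10) and Seurat, per the labels. The deposited table holds, on a natural log scale, ln(1 + a gene's UMIs per 10000 UMIs of the cell), made by the authors. UMIs were recovered from these values and came out whole (within 0.01) for 100% of entries. Depth was 54145377 and 64654306 UMIs (replicates 1 and 2), or 4753 to 60990 per cell. Intervals cover counting error only. No per-sample column was left unused.

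Cells were clustered with Leiden in scanpy 1.11.5 (2000 variable genes, 30 components, 15 neighbours, resolution 1) without 691 genes, namely collagens, partner genes, X- and Y-linked genes and the 4 factors. A cluster was named where at least 3 and over 50% of the listed markers of 1 type were up 2-fold or more. This naming rule was set after the clusters were seen, and "at least 50%" would have named cluster 1 contractile-like (4 of 8 markers). Scrublet called 4 and 3 doublets, too few to count as working, and no source used here says whether doublets were removed before deposit.

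State means per library were tested with limma 3.58.1 in R 4.3.3 (trend, log2(mean + 0.1), state and library as terms, minimum 0.1 per 10000 in both libraries of a state, Benjamini-Hochberg over 9082 genes, threshold 0.05, two-sided). Library, the replicate number, is thus a block. It was in the fit from the start, because all states of a library share that library. That left 14 residual degrees of freedom per gene, and 24.4 in total with empirical Bayes, from 2 libraries. In simulated data, 100% of 200 genes changed 4-fold were recovered for the contrast of pluripotent-like cells with the other states among 8960 genes. The changed genes averaged at least 0.1 per 10000, and no library effect was simulated. The recovery thus does not speak for smaller differences, such as those of Col7a1, Col5a3 or Klhl12. Every member is accounted for. Those that passed the filter are given by value, and up to 4 partner genes per role with the largest difference past the threshold are named. Members and lists were chosen with earlier results of these data known. Gene positions come from GENCODE M21 (GRCm38) and promoters from RefSeq (GRCm38.p6, 33 of 42 members with an entry). Alternatives covered pseudocount, filter, profile, clustering, block, doublets and libraries.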

Additional observations from a re-analysis of the deposited data

Results flagged for a closer look

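The 4 clusters with under 30 cells in 1 library entered no comparison, and in 7 cases a chain with over 3 UMIs in at least 10 cells had a higher level there than in any of the 15 states of the same library. Cases with fewer UMIs or cells are not listed. The differences from those states were not tested, and most rest on few UMIs. In cluster 15 of replicate 1, the epithelial-like one with 62 cells, Col17a1, a chain of hemidesmosomes in epithelia, stood at 0.0387 per 10000 from 5 UMIs, against at most 0.0017 in a state. In cluster 16 of replicate 2, with 41 cells and led by Trf and Saa3, Col4a1 reached 4.27 from 227 UMIs (highest state 3.88), Col8a2 0.263 from 13 UMIs (0.222), Col4a5 0.249 from 15 UMIs (0.0906) and Col20a1 0.0773 from 4 UMIs (0.0197). In cluster 17 of replicate 1, with 16 cells, Col18a1 reached 0.894 from 17 UMIs (0.506) and Col14a1 0.265 from 9 UMIs (0.0435).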

How the results depend on the processing

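Chains lower in pluripotent-like cells numbered 18 of 19 tested with a minimum of 0.5, 22 of 42 without the filter and 20 to 23 of 23 or 24 under each other alternative, and the F test among the other states called 30 of 42 chains without the filter and every chain tested under each other alternative. Without the filter on low values, chains higher went from 1 to 7, the 6 added ones being Col6a5, Col9a2, Col9a3, Col13a1, Col22a1 and Col26a1, all under the filter. Partner genes higher went from 1 to 2 without the filter, and to 0 with a pseudocount of 0.01 (Klhl12, adjusted p = 0.079, limma) or a minimum of 0.5. Partner genes lower ranged from 26 of 26 to 36 of 48. Without the replicate block 21 of 23 chains and 34 of 37 partner genes were lower, Col10a1 and Pcolce2 losing their calls, and the block changed no other call. Col10a1 also lost its call with a pseudocount of 1, without the filter and with UMIs summed over cells, and Col7a1 with a pseudocount of 0.01 or 1. Col2a1 lost its call with a pseudocount of 0.01 (limma, adjusted p = 0.057) and with collagens kept in the clustering (0.051). The cause of these changes was not tested. Of 641 single-gene values under alternatives, 623 kept direction and call, 17 lost and 1 gained the call, and 0 reversed. The summed level of −3.79 was −3.74 with UMIs summed, −4.15 and −3.70 at resolution 0.5 and 2, −3.70 with more variable genes, −3.81 with collagens in the clustering, −3.78 without called doublets, −3.56 without the 2 chains of highest level, and −3.79 in each library alone. The ratio of Col1a1 to Col1a2, 0.437, was 0.405 to 0.470 in 1 library alone. The count of chains 2-fold apart between libraries, 2, was 0 with a pseudocount of 1 and 0 with equal weight to each state; other clusterings do not enter it. Leaving out a library leaves limma no residual degrees of freedom, so its counts have no such value. Depth limits the 19 chains not tested and every value of the macrophage-like cells.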
